A study of Mus musculus with 18 samples.

Results

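The *Zscan4* genes of the mouse form a tandem family on chromosome 7, and 6 listed members, *Zscan4a* to *Zscan4f*, were chosen by gene symbol. No measured value enters that rule, but the family itself was picked with earlier results of these data known. Of these, 5 (*Zscan4b*, *Zscan4c*, *Zscan4d*, *Zscan4e* and *Zscan4f*) were measured among the 35773 genes of the count tables, and *Zscan4a* was not analysed here. All 5 passed the filter on low counts, and in each of ASCs, ESC-ASCs and EpiLCs every one of them had over 10 counts in all 3 samples. RNA-seq of polyadenylated RNA was compared in 18 samples of cultured mouse pluripotent stem cells, in 6 groups of 3. Every sample is labelled wild type and of the strain 129S2/SvPasCrl, and the study's methods describe embryos of 129/sv mothers and reporter males of a mixed MF1, 129/sv and C57BL/6J background. ESCs are naive embryonic stem cells kept in 2i and LIF, in which inhibitors of MEK and GSK3 hold the cells in a state like the preimplantation epiblast. AFSCs are primed cells derived from blastocysts in Activin A and FGF2. ASCs, advanced pluripotent stem cells, were obtained by moving AFSCs into a medium with Activin A, BMP4, CHIR99021 (a GSK3 inhibitor that stimulates Wnt signalling) and LIF, and ESC-ASCs are ESCs converted in the same medium. EpiLCs are epiblast-like cells and EpiSCs epiblast stem cells. In the study's clustering EpiLCs lay with postimplantation epiblast, and AFSCs and EpiSCs at later stages. The study describes its RNA-seq clustering as made from 3 biological replicates. The labels do not say whether the 3 samples of a group came from separate lines, clones or cultures. The p-values thus measure the spread between these samples, which may not be that between lines.

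*Zscan4* proteins carry a SCAN domain, through which such proteins pair with one another, and zinc fingers that bind DNA. The genes are switched on in the 2-cell embryo when the mouse genome is first transcribed, and they are known in ESC cultures as a burst in a small, changing fraction of the cells, together with other genes of the 2-cell embryo. The family is known for its part in telomere maintenance and genome stability in ESCs. Known regulators are the DUX transcription factor, DPPA2 and DPPA4, which act on *Dux*, and TBX3, while chromatin repressors such as KAP1 (*Trim28*), the CAF-1 subunits and LSD1 (*Kdm1a*) hold the genes of the 2-cell state down.

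The family's copies are so alike that a fragment often cannot be given to 1 of them. The cluster spans 713 kb, from *Zscan4b* at chr7:10900740-10905050 to *Zscan4-ps3* at chr7:11609308-11614112 (GRCm38). *Zscan4b*, *Zscan4d* (chr7:11161374-11166159), *Zscan4e* (chr7:11306378-11310682) and *Zscan4-ps1* lie on the minus strand, and *Zscan4c* (chr7:11005745-11010547), *Zscan4f* (chr7:11397915-11402318), *Zscan4-ps2* and *Zscan4-ps3* on the plus strand. The annotated transcripts of the 5 members have 4 exons each and a coding part of 1515 or 1518 bases. *Zscan4b* and *Zscan4e* were 99.71% identical over their aligned transcripts and *Zscan4c* and *Zscan4f* 99.5%, whereas *Zscan4b* and *Zscan4c* shared 97.25% and *Zscan4d* stood between 96.63% and 97.79% from each of the other 4. Of all stretches of 50 bases in the transcript, 95.34% in *Zscan4f*, 91.57% in *Zscan4e*, 90.35% in *Zscan4b*, 85.54% in *Zscan4c* and 49.57% in *Zscan4d* also occurred in another gene of the cluster. The files count a fragment at every place it aligns to, so many counts of *Zscan4b*, *Zscan4c*, *Zscan4e* and *Zscan4f* may also stand under their copies, and the levels of single members are uncertain. *Zscan4d* is the member with the most sequence of its own.

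To show how close the copies are, 120 bases of the first coding exon (GENCODE M21, GRCm38, written in the direction of the gene) are given for the 4 members that differ there, with capitals at each base that differs from *Zscan4c*. They come from chr7:10903922-10904041 on the minus strand for *Zscan4b*, chr7:11006730-11006849 on the plus strand for *Zscan4c*, chr7:11165055-11165174 on the minus strand for *Zscan4d* and chr7:11398923-11399042 on the plus strand for *Zscan4f*. *Zscan4b*, *Zscan4d* and *Zscan4f* each differ from *Zscan4c* at 1 base of this stretch, and *Zscan4e* is identical to *Zscan4c* there.
Zscan4b: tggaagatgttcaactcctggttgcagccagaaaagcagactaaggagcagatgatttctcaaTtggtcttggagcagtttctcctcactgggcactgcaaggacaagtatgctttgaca
Zscan4c: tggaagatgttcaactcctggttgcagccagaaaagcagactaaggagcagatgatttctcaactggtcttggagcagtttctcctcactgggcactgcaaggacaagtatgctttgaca
Zscan4d: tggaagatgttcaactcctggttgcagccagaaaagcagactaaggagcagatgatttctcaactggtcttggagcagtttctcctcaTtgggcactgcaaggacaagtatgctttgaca
Zscan4f: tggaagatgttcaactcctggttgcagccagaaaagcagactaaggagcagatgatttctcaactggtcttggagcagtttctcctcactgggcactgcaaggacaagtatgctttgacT

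The promoters of these members were also close in sequence. RefSeq (GRCm38.p6) holds a promoter for 4 of the 5 measured members, and the 204 bases that all 4 share upstream of their start sites are printed with capitals where a base differs from *Zscan4c*. The stretches lie at chr7:10905063-10905266 on the minus strand for *Zscan4b*, chr7:11005506-11005709 on the plus strand for *Zscan4c*, chr7:11166195-11166398 on the minus strand for *Zscan4d* and chr7:11397699-11397902 on the plus strand for *Zscan4f*.
Zscan4b: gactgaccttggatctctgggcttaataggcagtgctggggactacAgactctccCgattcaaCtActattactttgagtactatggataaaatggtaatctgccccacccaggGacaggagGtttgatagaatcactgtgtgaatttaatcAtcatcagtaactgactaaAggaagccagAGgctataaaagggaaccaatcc
Zscan4c: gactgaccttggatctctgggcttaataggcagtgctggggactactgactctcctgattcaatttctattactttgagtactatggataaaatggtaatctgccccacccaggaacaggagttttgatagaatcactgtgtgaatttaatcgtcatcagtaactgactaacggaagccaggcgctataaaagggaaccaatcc
Zscan4d: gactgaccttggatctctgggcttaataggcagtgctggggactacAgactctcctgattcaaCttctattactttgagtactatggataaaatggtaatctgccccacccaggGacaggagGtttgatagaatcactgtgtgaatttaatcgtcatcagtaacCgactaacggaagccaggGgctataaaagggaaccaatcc
Zscan4f: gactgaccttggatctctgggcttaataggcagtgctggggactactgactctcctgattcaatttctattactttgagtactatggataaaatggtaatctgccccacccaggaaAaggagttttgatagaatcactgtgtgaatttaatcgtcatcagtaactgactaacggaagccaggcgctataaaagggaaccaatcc

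Against *Zscan4c*, the stretch differed at 1 base in *Zscan4f* (99.51% identity), at 6 bases in *Zscan4d* (97.06%) and at 10 bases in *Zscan4b* (95.1%). A TATAAAA run, the core of a TATA box, stood near the end of each, beginning at position -31 from the annotated start site in *Zscan4b* and *Zscan4f*, at -54 in *Zscan4c* and at -65 in *Zscan4d*. On either strand of the window from 250 bases before to 50 bases after the start, TATAAAA was present in 4 of the 4 promoters and in 5.48% of 32851 RefSeq promoters of that length. This is a match of letters only, in near-identical copies that are not 4 separate cases. No binding was measured.

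*Zscan4* RNA was highest in ASCs, at an intermediate and similar level in ESC-ASCs and EpiLCs, low in ESCs and close to 0 in AFSCs and EpiSCs. Counts were divided by DESeq2 size factors (normalized read counts) and summed over the 5 measured members. Because shared fragments enter the sum more than once, it compares groups and does not count molecules. The 3 ASC samples had 6588, 5297 and 5437, a mean of 5774 ± 708.5 (SD, n = 3). ESC-ASCs had 560.6, 381.0 and 447.9 (463.2 ± 90.76) and EpiLCs 476.0, 299.9 and 336.0 (370.6 ± 93.04). ESCs had 72.85, 48.88 and 50.20 (57.31 ± 13.47). In AFSCs the sum was 13.47 in replicate 1, from 10 counts, and 0 in replicates 2 and 3, and in EpiSCs the 3 samples held 0, 1 and 2 counts. No ASC sample came near any sample of another group, the ranges of ESC-ASCs and EpiLCs overlapped, and every sample of both lay above every ESC sample. On this scale the ASC mean was 12.47 times that of ESC-ASCs, 15.58 times that of EpiLCs and 100.8 times that of ESCs, and ESC-ASCs exceeded ESCs 8.082 times. As these are bulk cultures, more cells with *Zscan4* RNA and more *Zscan4* RNA per cell cannot be told apart.

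**Figure D1:**
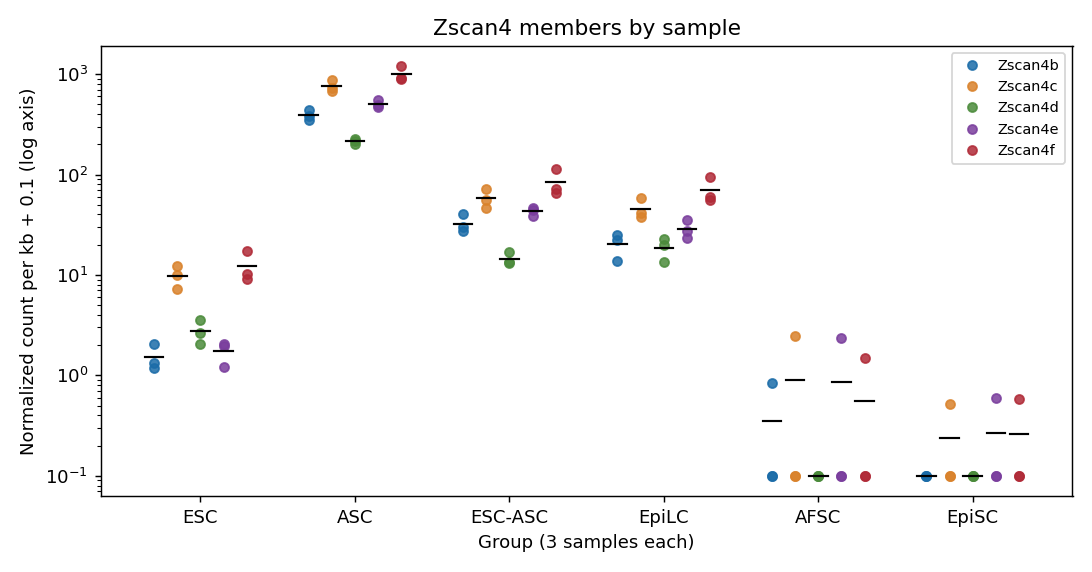
Normalized read counts per kb of exon (plus 0.1, log axis) of the 5 measured *Zscan4* members in each of the 18 samples by group. Points are samples and bars are group means. ASC samples lie between 200.3 and 1193, all above the samples of the other groups for the same member, and most AFSC and EpiSC samples lie at 0, drawn at 0.1.

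Depth did not follow this order. Total gene counts ran from 4961934 to 8148294 in ESCs and ASCs, from 6976376 to 9906473 in EpiLCs, AFSCs and EpiSCs, and from 17813619 to 18071600 in ESC-ASCs. The tables of the samples titled ASC carry the word ABCL in their names, and those of the samples titled AFSC the word ASC. The titles were followed here, and the naive marker sum was 1866 to 2089 CPM (counts scaled to a common total) in the samples titled ASC and 8.589 to 14.06 in those titled AFSC. The summed level of 6 naive markers was between 1539 and 2429 CPM in ESC, ASC and ESC-ASC samples and at most 37.46 in the other 3 groups. The 7 primed markers summed to between 456.9 and 1080 CPM in EpiLCs, AFSCs and EpiSCs and to at most 97.11 in the rest, with 1 naive marker at 0 in AFSCs and in EpiSCs and 1 primed marker at 0 in ESCs, and *Pou5f1*, *Sox2* and *Nanog* were detected in every group. Single primed markers were split in EpiLCs. *T* was at 5.678 per kb there, 20.83 in ESCs and 26.85 in ASCs, and *Eomes* at 12.52, against 21.55 in ASCs. Of the 7 primed markers, 2 were higher and 5 lower in ASCs than in EpiLCs (31.4% and 28.4% of all tested genes). The 7 fibroblast markers summed to 42.14 to 69.23 CPM in ASCs and 29.05 to 63.16 in ESCs, ranges that overlap. The study derived AFSCs without feeder cells and ASCs on fibronectin. Of 5 fibroblast markers tested, 2 were higher and 3 lower in ASCs than in ESCs, where 26.4% of all tested genes were higher and 23.9% lower. *Col1a1* (56.39 against 22.35 per kb) and *Thy1* (34.65 against 6.617) were higher. *Col3a1* (0.5864 against 11.22), *Dcn* (0.1726 against 14.47) and *Col1a2* (2.441 against 6.676) were lower. Markers of primitive endoderm (10.93 to 12.71 against 6.56 to 11.66 CPM) and of trophoblast (121.8 to 154.4 against 142.1 to 143.7 CPM) overlapped between ASCs and ESCs as well, although single markers moved with *Zscan4*. Of 6 endoderm markers tested, *Sox17*, *Pdgfra* and *Gata6* were higher in ASCs than in ESCs (log2 changes 2.50, 1.99 and 1.97) and *Dab2* was lower (-1.57), with a median of 1.33. Of 5 trophoblast markers tested, *Krt18* (258.4 against 13.83 per kb, log2 change 4.21) and *Gata3* (1.43) were higher and *Cdx2* (-0.93) and *Tfap2c* (-0.53) lower. Their part in the *Zscan4* difference was not tested. *Zscan4* thus was intermediate in EpiLCs, whose naive markers were low (31.33 to 37.46 CPM), and low in ESCs, whose naive markers were high (1734 to 2429).

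All 5 members rose in ASCs against each other group. To compare members, normalized counts were also divided by the exonic length in kb. *Zscan4f* had 1193, 904.8 and 897.0 per kb in ASCs, 114.1, 64.84 and 71.09 in ESC-ASCs, 93.78, 55.99 and 59.54 in EpiLCs and 17.09, 10.10 and 9.111 in ESCs. *Zscan4c*, its near copy, had 864.2, 681.6 and 724.3 in ASCs, 70.85, 46.79 and 56.11 in ESC-ASCs, 58.38, 41.20 and 37.62 in EpiLCs and 12.11, 7.159 and 9.803 in ESCs. These were the highest 2 members by mean level in each of these 4 groups. *Zscan4e* had 556.6, 466.2 and 495.5 per kb in ASCs, 46.80, 38.14 and 44.02 in ESC-ASCs, 34.80, 23.19 and 27.45 in EpiLCs and 1.098, 1.947 and 1.866 in ESCs. *Zscan4b* had 439.5, 347.5 and 381.6 in ASCs, 29.74, 27.38 and 39.90 in ESC-ASCs, 25.01, 13.75 and 21.97 in EpiLCs and 1.093, 1.938 and 1.238 in ESCs. In ESCs this second pair had at most 3 counts in any sample. *Zscan4d*, the member with the fewest shared stretches, had 217.5, 224.9 and 200.3 per kb in ASCs, 16.91, 13.12 and 13.28 in ESC-ASCs, 22.88, 13.24 and 19.78 in EpiLCs and 3.466, 2.561 and 1.964 in ESCs. The ASC samples lay above all others for each of the 5.

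In ASCs, *Zscan4f* at 998.2 ± 168.7 per kb (SD, n = 3) ranked 498 and *Zscan4d* at 214.2 ± 12.58 ranked 2525 by mean level among the 16901 genes tested. In ESC-ASCs the level of *Zscan4f* was above that of 66.76% of those genes, in EpiLCs 63.82%, in ESCs 30.61% and in AFSCs 6.426%. For scale, *Nanog*, a core pluripotency factor, was at 2663 and *Pou5f1* at 5544 per kb in ASCs. As a shared fragment counts at each copy, the levels and ranks of the members, above all of *Zscan4f*, may be too high.

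The first question was how ASCs compare with naive ESCs, since both carry naive markers. In edgeR's quasi-likelihood test over all genes, with Benjamini-Hochberg adjustment, 5 of 5 members were higher in ASCs than in ESCs, where 26.4% of all tested genes were higher and 23.9% lower. The log2 fold change of *Zscan4f* was 6.41 ± 0.32 (SE; adjusted p = 3.25e-11), of *Zscan4c* 6.30 ± 0.30 (adjusted p = 1.92e-11) and of *Zscan4d* 6.34 ± 0.28 (adjusted p = 2.25e-10). *Zscan4b* and *Zscan4e*, the other near-identical pair, gave 7.97 ± 0.34 (adjusted p = 2.64e-11) and 8.12 ± 0.34 (adjusted p = 3.44e-12). The 5 changes had a median of 6.41, against 0.02 over all tested genes. As ratios of mean levels the ASC excess was 273.7-fold for *Zscan4b* and 309.2-fold for *Zscan4e*, and between 78.08 and 82.50-fold for the other 3. The first 2 ratios rest on 6 and 7 counts over the ESC samples, so their sizes are uncertain. The SE of the matching log2 changes may be too small for the same reason. As near-identical copies that can share fragments, *Zscan4b* and *Zscan4e* are not 2 separate measurements.

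The second question was whether the origin of cells in the same medium went with a difference. ASCs, which came from AFSCs, exceeded ESC-ASCs, which came from ESCs, in 5 of 5 members, against 27.7% of all genes higher and 23% lower. The log2 fold changes lay close together, from 3.55 ± 0.22 (SE) in *Zscan4e* (adjusted p = 4.77e-10) to 3.88 ± 0.20 in *Zscan4d* (adjusted p = 1.37e-09), with a median of 3.58 against 0.05 over all genes. The 2 groups also differ in the lines they came from and in depth, and origin, line and library cannot be told apart in this design. Markers of other cells also moved with this pair: the fibroblast sum was 42.14 to 69.23 CPM in ASCs and 10.35 to 13.26 in ESC-ASCs, where 3 of its 7 genes were at 0, and the trophoblast sum 121.8 to 154.4 against 85.92 to 93.79, where 1 of 6 was at 0. The primed sum was 78.21 to 97.11 CPM against 40.12 to 46.51, the primitive endoderm sum 10.93 to 12.71 against 8.414 to 9.453 and the naive sum 1866 to 2089 against 1539 to 1654, none of them overlapping. Their part in the *Zscan4* difference was not tested. ESC-ASCs in turn exceeded ESCs in 5 of 5 members, with 30.6% of all genes higher and 29.6% lower. In this pair the fibroblast sum (10.35 to 13.26 against 29.05 to 63.16 CPM), the trophoblast sum (85.92 to 93.79 against 142.1 to 143.7) and the naive sum (1539 to 1654 against 1734 to 2429) were lower in every ESC-ASC sample, and the primed sum was higher (40.12 to 46.51 against 36.75 to 39.54). Their part was not tested. The log2 change was 2.84 ± 0.32 in *Zscan4f* (adjusted p = 3.94e-07), 2.46 ± 0.32 in *Zscan4d* (adjusted p = 7.6e-06) and 4.57 ± 0.39 in *Zscan4e* (adjusted p = 9.55e-09).

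EpiLCs stood apart from AFSCs and EpiSCs. ASCs exceeded EpiLCs in 5 of 5 members (31.4% of all genes higher, 28.4% lower), by log2 changes from 3.51 ± 0.20 (SE) in *Zscan4d* (adjusted p = 1.88e-09) to 4.25 ± 0.23 in *Zscan4b* (adjusted p = 1.82e-10). ESCs were below EpiLCs in 5 of 5 members, where 26.6% of all genes were higher and 28.7% lower in ESCs. *Zscan4f* fell by 2.59 ± 0.33 and *Zscan4e* fell by 3.99 ± 0.42 on the log2 scale from EpiLCs to ESCs (adjusted p = 1.72e-06 and 1.36e-07). ESC-ASCs and EpiLCs were neighbours in the order of levels. There 2 of 5 members were higher in ESC-ASCs, against 31.9% of all genes higher and 32.2% lower, namely *Zscan4b* (log2 change 0.67 ± 0.23, adjusted p = 0.0187) and *Zscan4e* (0.58 ± 0.23, adjusted p = 0.0317). *Zscan4c* (0.33 ± 0.24), *Zscan4f* (0.24 ± 0.25) and *Zscan4d* (-0.37 ± 0.21) did not pass, with adjusted p = 0.239, 0.4 and 0.138, and their ranges overlapped.

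AFSCs, the source of the ASCs, and EpiSCs held almost no *Zscan4* reads. *Zscan4c* had 4, 0 and 0 counts in the 3 AFSC samples and 0, 0 and 1 in EpiSCs. *Zscan4f* had 2, 0 and 0 in AFSCs and 0, 0 and 1 in EpiSCs. *Zscan4d* had 0 counts in all 6. All 10 AFSC counts were in replicate 1. ASCs exceeded AFSCs in 5 of 5 members (32.8% of all genes higher, 31.2% lower) and EpiSCs in 5 of 5 (35.9% higher, 30.7% lower). Since the low group was near 0, counts give the size better than fitted changes. *Zscan4d* was at least 137.6-fold higher in ASCs than in AFSCs and at least 154.8-fold higher than in EpiSCs, taking 3 counts per library as the floor that a count of 0 allows. For *Zscan4f*, 5475 counts in ASCs against 2 in AFSCs gave a ratio of 2513 with an exact 95% interval from 695.3 to 20760, which covers counting error only. Adjusted p in these comparisons was at most 8.95e-12 against AFSCs and 4.78e-12 against EpiSCs.

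ESCs, too, lay above these 2 groups. Against EpiSCs 5 of 5 members were higher in ESCs (32% of all genes higher, 29.2% lower), and against AFSCs 3 of 5 (30.8% higher, 29.7% lower), namely *Zscan4c*, *Zscan4d* and *Zscan4f*. *Zscan4c* had 14, 14 and 20 counts in ESCs, 13.63 times the AFSC level with an interval from 4.992 to 52.06 (adjusted p = 7.39e-05). *Zscan4b*, with 1, 3 and 2 counts in ESCs and 1, 0 and 0 in AFSCs, had adjusted p = 0.0518, and *Zscan4e*, with 1, 3 and 3 against 3, 0 and 0, had 0.2. Without AFSC replicate 1, which holds every AFSC count, 5 of 5 members passed. *Zscan4e* against EpiSCs (adjusted p = 0.025) was no longer called without ESC replicate 2 (0.0672), ESC replicate 3 (0.0636), EpiSC replicate 1 (0.0641) or EpiSC replicate 3 (0.0852). Between AFSCs and EpiSCs 0 of 5 members passed, and 0 had an unadjusted p under 0.05 in edgeR, the only tool run for this pair (lowest 0.2), where 21.6% of all genes were higher and 17.8% lower in AFSCs. At these counts a difference was not detectable. ESC-ASCs exceeded AFSCs (35.3% of all genes higher, 33.7% lower) and EpiSCs (38.2% higher, 34% lower) in 5 of 5 members, as did EpiLCs (24.4% higher and 22.6% lower against AFSCs, 27% and 21.5% against EpiSCs). *Zscan4f* was 209.3 times higher in ESC-ASCs than in AFSCs (95% interval 57.79 to 1731) and 172.0 times in EpiLCs (47.3 to 1425).

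**Figure D2:**
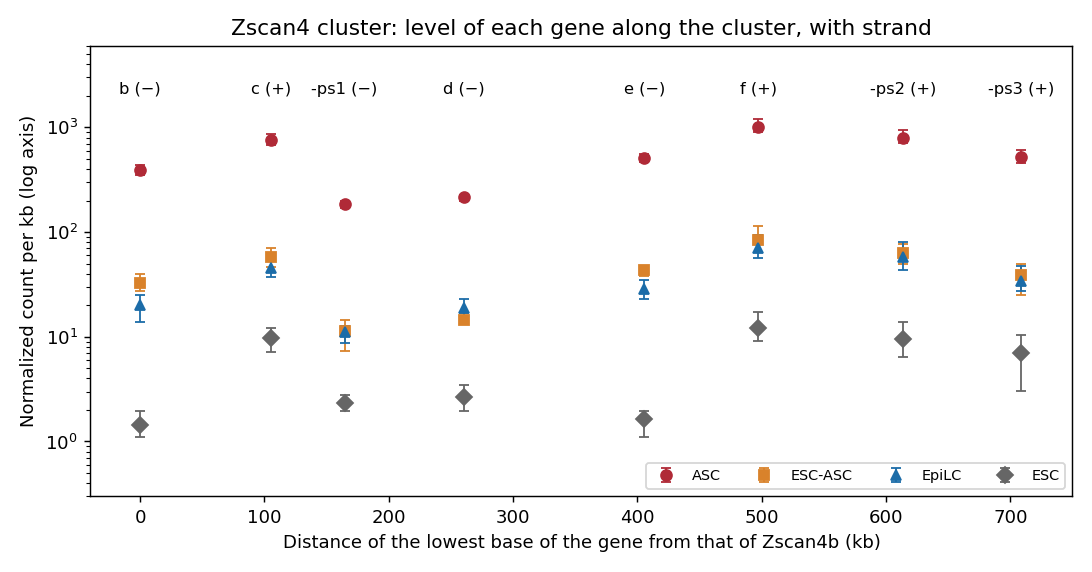
Mean level (normalized count per kb, log axis) of each gene of the cluster at its distance in kb from *Zscan4b*, with its strand. Markers are group means and bars run from the lowest to the highest of 3 samples; ASC is highest and ESC lowest of the 4 groups at all 8 genes, and *Zscan4b* and *Zscan4e* sit lowest in ESC.

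The genes named as pseudogenes followed the members. *Zscan4-ps1*, *Zscan4-ps2* and *Zscan4-ps3* are pseudogenes in RefSeq and protein coding in GENCODE M21, and *Zscan4-ps2* is 99.78% identical to *Zscan4f*. *Zscan4-ps2* had 934.9, 712.8 and 702.8 per kb in ASCs and 13.84, 8.689 and 6.369 in ESCs. *Zscan4-ps3* had 605.1, 506.2 and 455.2 against 10.38, 3.067 and 7.349. *Zscan4-ps1*, of whose stretches of 50 bases 48.37% occur elsewhere in the cluster, had 181.5, 199.9 and 170.9 against 1.954, 2.310 and 2.768. All 3 rose in ASCs against ESCs, by 6.40 ± 0.32, 6.30 ± 0.39 and 6.20 ± 0.32 (SE) on the log2 scale with adjusted p of 3.25e-11, 4.38e-10 and 2.64e-10. Their values share fragments with the members, so they are not separate evidence.

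In ESCs *Zscan4b* and *Zscan4e* held a smaller share of the family's counts than in the 3 groups with more *Zscan4*. In ASCs *Zscan4f* made up 35.47, 33.46 and 32.32% of the 5 members' counts, *Zscan4c* 29.86, 29.29 and 30.32%, *Zscan4e* 15.15, 15.78 and 16.34%, *Zscan4b* 12.02, 11.82 and 12.65% and *Zscan4d* 7.501, 9.645 and 8.372%. In ESC-ASCs the mean shares were 34.76, 28.41, 16.85, 12.85 and 7.136% in the same order, and in EpiLCs 36.63, 28.22, 13.87, 9.836 and 11.44%. In the 3 ESC samples *Zscan4b* took 2.703, 7.143 and 4.444% and *Zscan4e* 2.703, 7.143 and 6.667%. Every ESC sample lay below every ASC, ESC-ASC and EpiLC sample for both of these members. *Zscan4c*, at 37.84, 33.33 and 44.44%, lay above them all. The exact permutation test (two-sided) gave p = 0.1 for each of these differences between ESCs and ASCs, the smallest that 3 samples against 3 allow, over 25 comparisons of shares, and no adjusted p was under 0.05. The ESC shares rest on 37, 42 and 45 counts in all.

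**Figure D3:**
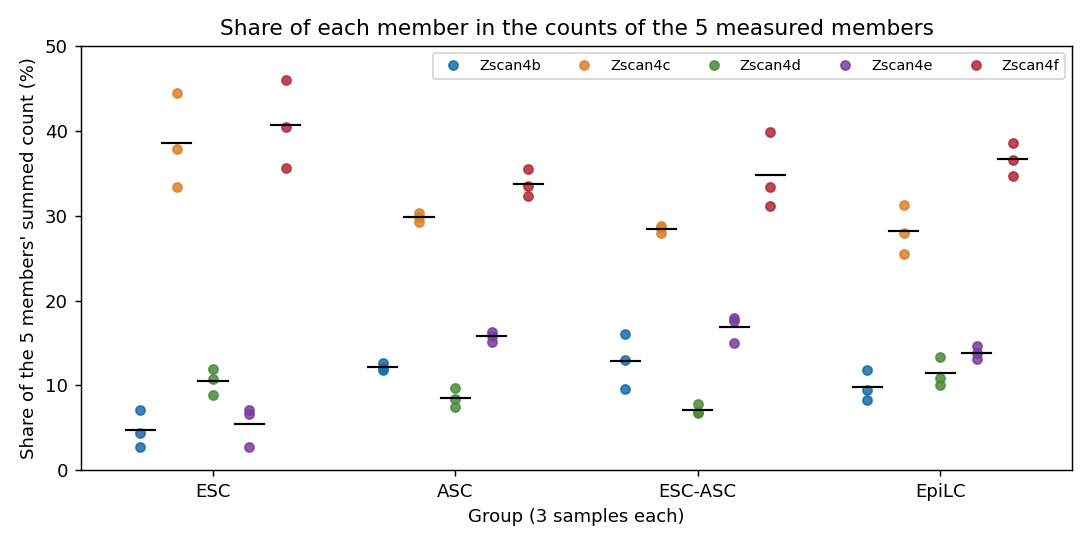
Share (%) of each of the 5 members in their summed count, by sample, in the 4 groups with enough counts. Points are samples and bars are group means; *Zscan4b* and *Zscan4e* have 2.703 to 7.143% in ESC and 8.260 to 17.95% in the other 3 groups.

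Of the known regulators, DPPA2 and DPPA4 are partner proteins that open the *Dux* and *Zscan4* regions. In ASCs *Dppa2* had 339.0, 444.6 and 466.2 normalized counts per kb, with 487.0, 435.9 and 454.3 in EpiLCs, 118.3, 117.1 and 112.8 in ESCs and 99.65, 91.03 and 99.36 in ESC-ASCs. It was at 2.377 to 5.530 in AFSCs and 1.960 to 3.619 in EpiSCs, the groups in which *Zscan4* was near 0. ASCs and EpiLCs overlapped, and ASCs exceeded ESCs by 1.82 ± 0.15 (SE) on the log2 scale (adjusted p = 1.21e-08). *Dppa4* was highest in EpiLCs (1066, 822.3 and 820.4 per kb), followed by ESC-ASCs (536.3 to 560.2), ASCs (436.1 to 478.6) and ESCs (203.6 to 299.1), and was at 1.711 to 6.037 in AFSCs and EpiSCs. Its order in the 4 upper groups was therefore not that of *Zscan4*, and ASCs and ESC-ASCs differed by -0.27 ± 0.16 on the log2 scale (adjusted p = 0.165, or 0.0289 with only these 2 groups fitted). Both genes were called lower in AFSCs than in ESCs, *Dppa2* by 4.83 ± 0.22 and *Dppa4* by 5.75 ± 0.26 on the log2 scale (adjusted p = 1.06e-12 and 9.02e-13).

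*Tbx3*, a T-box factor of naive cells, had 361.6, 382.5 and 411.0 per kb in ASCs, 266.3, 271.8 and 267.4 in ESCs and 126.2, 129.9 and 133.9 in ESC-ASCs. It was at most 2.270 per kb in EpiLCs, where *Zscan4* was above its ESC level, and lower still in AFSCs and EpiSCs. ASCs exceeded ESC-ASCs in *Tbx3* by 1.56 ± 0.13 (SE; adjusted p = 2.5e-08) on the log2 scale. *Duxf3*, the copy of the *Dux* repeat family that the tables hold under that name, had 19, 13 and 24 counts in ASCs, 1, 5 and 2 in EpiLCs, 1, 0 and 2 in ESC-ASCs and 0 in every ESC, AFSC and EpiSC sample. It was called higher in ASCs than in ESC-ASCs (adjusted p = 1.81e-05) and than in EpiLCs (adjusted p = 0.000621). As *Duxf3* passed the filter on its ASC counts alone, these calls lean towards ASCs. Fragments of *Dux* copies can be shared, so the value may belong to another copy.

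**Figure D4:**
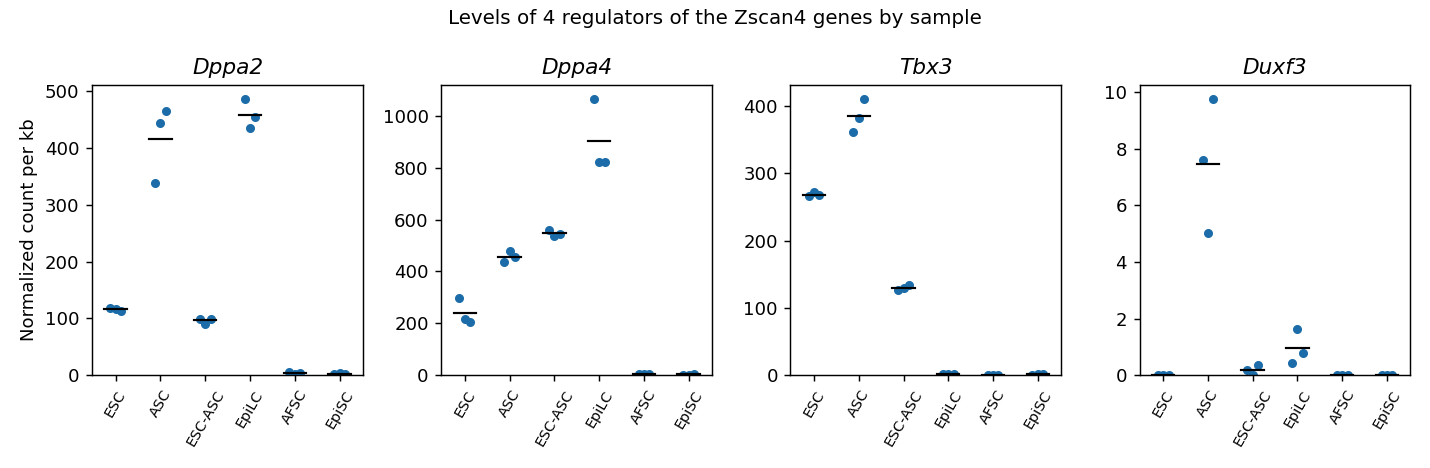
Normalized read counts per kb (linear axes from 0) of *Dppa2*, *Dppa4*, *Tbx3* and *Duxf3* in each sample by group. Points are samples and bars are group means; *Dppa2* and *Dppa4* are near 0 in AFSC and EpiSC, *Tbx3* is near 0 in EpiLC, AFSC and EpiSC, and *Duxf3* is highest in ASC at 5.005 to 9.761.

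Over the list of 23 regulators, 22 were tested and 7 were higher and 2 lower in ASCs than in ESCs, where 26.4% of all tested genes were higher and 23.9% lower, with a median log2 change of -0.14. The share that was higher is near that of all genes, and it includes *Duxf3*, which passed the filter on its ASC counts alone. Beside *Dppa2*, *Dppa4*, *Tbx3* and *Duxf3*, those higher were *Lin28a*, an RNA-binding protein (log2 change 1.86), *Rbbp7*, a histone-binding protein of several repressor complexes (1.02), and *Smchd1*, a repressor of repeat clusters (0.79). Those lower were *Trim28*, the KAP1 corepressor (-0.60, adjusted p = 0.0179), and *Ncl*, nucleolin, its partner on LINE1 RNA (-0.54, adjusted p = 0.0233). Neither of these last calls held when only the 2 groups were fitted (adjusted p = 0.0921 and 0.116). *Chaf1a* (-0.19 ± 0.14, adjusted p = 0.276), *Chaf1b* (-0.34 ± 0.16, adjusted p = 0.0872) and *Kdm1a* (0.19 ± 0.16, adjusted p = 0.344) did not pass. Between ASCs and ESC-ASCs 5 regulators were higher and 3 lower (27.7% and 23% of all genes), and between ESC-ASCs and ESCs 5 higher and 6 lower (30.6% and 29.6% of all genes).

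Most other tested genes of the early 2-cell embryo were also highest in ASCs. A list of 51 such genes, without *Zscan4*, had 49 in the tables and 38 that passed the filter, and 36 of these were higher and 1 lower in ASCs than in ESCs (26.4% and 23.9% of all tested genes). The median log2 change was 5.57, or 4.97 with the 5 genes at 0 in ESCs set at their lower bound, against 0.02 over all genes. *Tmem92*, a membrane protein, had 125, 88 and 89 counts in ASCs and 0 in each ESC sample (adjusted p = 7.61e-08). *Usp17ld*, a deubiquitinase, had 66, 67 and 68 against 0 (adjusted p = 5.38e-08), and *Tcstv3* had 39, 33 and 32 against 0 (adjusted p = 2.21e-06). *Gm12794* and *Gm12800*, 2 PRAME-like genes, had 174, 118 and 112 and 152, 114 and 100 counts in ASCs and 1 count each over the 3 ESC samples (adjusted p = 3.19e-08 and 9.1e-09). The gene that was lower was *Trim43a*, named for its direction after its values were seen, with 3.057 ± 0.78 per kb in ASCs and 16.10 ± 3.618 in ESCs (adjusted p = 0.000118). Many of these genes are near-identical copies that can share fragments. A gene could also pass the filter on its ASC counts alone, as *Duxf3* and *Tcstv3* did. The counts of the list therefore lean towards ASCs. The list was also chosen with earlier results of these data known, so it is no independent support.

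In the other comparisons some genes of the list were not called. Its tested genes were higher in ASCs than in ESC-ASCs for 35 and lower for 1 (median log2 change 3.0), where 27.7% of all tested genes were higher and 23% lower. They were higher in ESC-ASCs than in ESCs for 23 and lower for 1 (median 2.41, or 1.99 with bounds and 3 genes left out), where 30.6% of all tested genes were higher and 29.6% lower. Against EpiLCs, ESCs were higher in 2 and lower in 15 (median -1.58, or -1.28 with bounds and 3 genes left out), where 26.6% of all tested genes were higher and 28.7% lower. By mean level ASCs were the highest group for 35 of the 38 (92.11%), as for 5 of the 5 *Zscan4* members, where ASCs were highest for 14.4% of all tested genes. As some of the 38 passed the filter on their ASC counts alone, this count and those at 0 below lean towards ASCs. *Trim43a* and *Zfp750* were highest in ESCs, and *Eif4e3*, a cap-binding translation factor, was highest in AFSCs (18.45 per kb) and lowest in ESCs (0.261). These genes were named after their values were seen. In AFSCs 23 of the 38 and in EpiSCs 30 had 0 counts in all 3 samples.

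**Figure D5:**
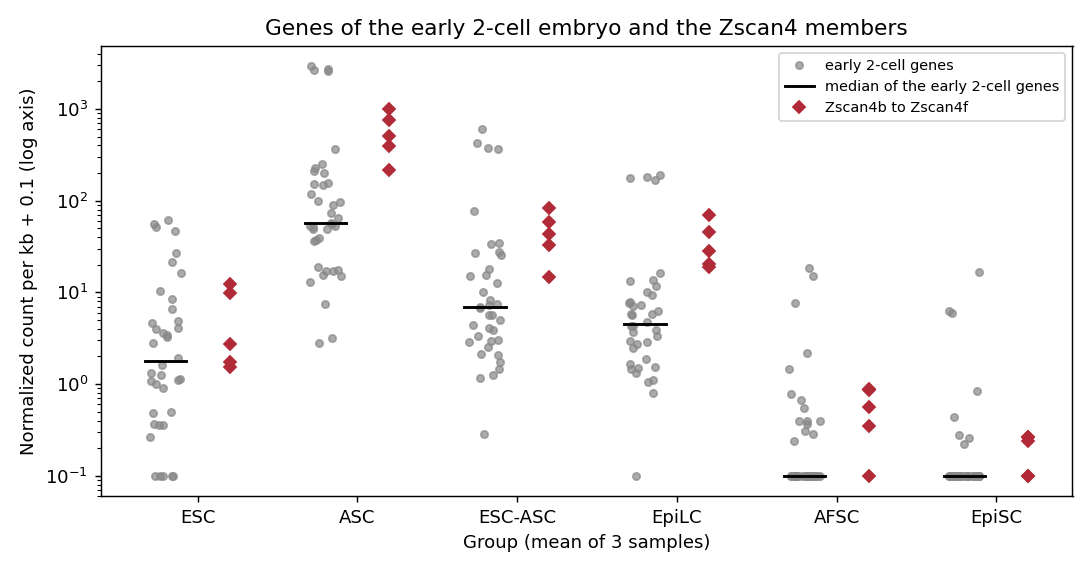
Mean normalized read counts per kb (plus 0.1, log axis) of 38 tested genes of the early 2-cell embryo (grey points, with their median as a bar) and of the 5 *Zscan4* members (red diamonds) in the 6 groups. The median of the list is 56.73 in ASC, 6.783 in ESC-ASC, 4.450 in EpiLC, 1.665 in ESC and 0 in AFSC and EpiSC.

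The pseudogenes of the cluster followed the summed family closely (Pearson r of log2 CPM 0.9958 for *Zscan4-ps2*, 0.9894 for *Zscan4-ps3* and 0.9672 for *Zscan4-ps1*) and, as they share its fragments, were left out of the ranking of likeness. Among the other genes tested, the one whose pattern over the 18 samples was most like that of the summed family was *Stra8*, which is needed for entry into meiosis (r = 0.9892). Its mean level per kb was 86.46 in ASCs, 22.97 in ESC-ASCs, 17.98 in EpiLCs, 5.274 in ESCs, 0.463 in AFSCs and 0.1765 in EpiSCs. Next came 7 genes of 1 cluster of near-identical copies on chromosome 10, *Gm4340*, *Gm21293*, *Gm20765*, *Gm21304*, *Gm21312*, *Gm8764* and *Gm6763* (r from 0.9732 to 0.98). *Gm4340* was at 2576 per kb in ASCs, 370.2 in ESC-ASCs, 167.0 in EpiLCs, 46.63 in ESCs and 0.2961 in AFSCs. The last 2 of the 10 most alike were *4930502E18Rik* (r = 0.9717) and *Dmrtc1c1* (r = 0.9706), both on the X chromosome. *Dppa2* and *Dppa4* had r = 0.907 and 0.8771, *Duxf3* 0.7843 and *Tbx3* 0.6987. The 18 samples share 6 groups and are not independent points, so these values describe likeness only.

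Genes of telomere maintenance, the process *Zscan4* is best known for, did not move one way. Of 13 tested, 3 were higher and 5 lower in ASCs than in ESCs (median log2 change -0.35), where 26.4% of all tested genes were higher and 23.9% lower. *Atrx*, a chromatin remodeller at telomeres, rose by 1.04 ± 0.23 and *Dkc1*, a subunit of telomerase, by 1.02 ± 0.26 (SE; adjusted p = 0.00118 and 0.00338). The shelterin genes *Terf2ip* (-0.90, adjusted p = 0.00016), *Terf1* (-0.65, adjusted p = 0.00865) and *Terf2* (-0.56, adjusted p = 0.00113) and the helicase *Rtel1* (-0.83, adjusted p = 1.5e-05) fell, *Terf1* no longer without ESC replicate 1 (adjusted p = 0.0709). Of 8 genes of meiotic recombination, 2 were higher and 1 lower (median 0.01). *Dmc1*, the meiotic recombinase, was at 57.86 per kb in ASCs, 47.57 in EpiLCs, 36.31 in ESC-ASCs and 7.835 in ESCs (ASC over ESC log2 change 2.97 ± 0.29, adjusted p = 4.09e-07). *Smc1b*, a meiotic cohesin, was at 47.58, 18.44, 35.88 and 6.935 in the same groups (2.80 ± 0.24, adjusted p = 2.68e-08). *Psmc3ip*, a partner of DMC1, fell by 0.66 ± 0.19 on the log2 scale (adjusted p = 0.00818).

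Other genes with a SCAN domain and zinc fingers did not follow *Zscan4*. Of 12 such genes listed, 11 were tested, and 1 was higher and 6 lower in ASCs than in ESCs (median log2 change -0.58; 26.4% and 23.9% of all tested genes). *Zscan10*, a factor of ESCs, was at 200.6 per kb in ASCs, 571.2 in ESCs and 123.9 in ESC-ASCs (ASC over ESC -1.53 ± 0.18, adjusted p = 1.12e-06). *Zscan21* (-1.28), *Zscan29* (-0.74), *Zscan12* (-0.70), *Zscan26* (-0.58) and *Zscan22* (-0.42) were also lower, with adjusted p from 8.09e-06 to 0.0368. The calls of *Zscan26* and *Zscan22* did not hold with only the 2 groups fitted (adjusted p = 0.0626 and 0.139), nor without single samples. The one that was higher was *Zscan5b*, at 13.67 per kb in ASCs and 7.0 in ESCs (0.98 ± 0.34, adjusted p = 0.0239), which did not pass in DESeq2's Wald test (adjusted p = 0.0598), nor without ESC replicate 2 (0.104), ESC replicate 3 (0.0634), ASC replicate 2 (0.0806) or ASC replicate 3 (0.0565). *Zscan2*, *Zscan18*, *Zscan20* and *Zscan25* had log2 changes of -0.65, 0.18, 0.12 and 0.08 with adjusted p of 0.0505, 0.336, 0.635 and 0.853.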

How the data were processed

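Raw fragment counts per gene were the deposited values, 1 table per sample for 18 samples. The authors aligned paired-end reads to GRCm38 with TopHat2, allowing one mismatch, and counted with featureCounts 1.5.0-p1 on Ensembl 86 exons without strand. Per the file headers, fragments that overlap several genes or align to several places were counted at each, and chimeric or half-aligned pairs were dropped. The version of TopHat2 is not given in the sources used here. Genes were named with GENCODE M21, which gave 35514 of 35773 genes a symbol. Sequences came from GENCODE M21 and RefSeq (GRCm38.p6).

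For levels, each count was scaled with a DESeq2 (1.42.0) size factor and then taken per kb of exon. Tests used edgeR 4.0.16 (glmQLFit with robust estimation, glmQLFTest, TMM) on all 18 samples with group as the only term, over the 16901 genes that reached 10 counts in 3 or more samples, and Benjamini-Hochberg adjustment within a comparison at 0.05. The ± marked SE beside a fitted log2 change was back-calculated from the F statistic of its test. It is approximate and may be too small where a group holds few counts. For *Zscan4b* it was 0.42 for ASCs over AFSCs and 0.39 for ESC-ASCs over ESCs, but 1.08 for the difference between these changes. The scripts were tested on simulated data. The study used DESeq2, which was an alternative here, beside other size factors and filters, a fit of the 2 groups alone, the replicate number as a term and leaving out single samples. All pairs of groups were tested, 9 of them planned. Ratios against near-empty groups use exact 95% intervals or a floor of 3 counts per library, and cover counting error only. Total counts ran from 4961934 to 18071600. The members and gene lists were chosen with earlier results of these data known. The text names every member and pseudogene, any gene of the regulator and SCAN lists, up to 6 called genes of each other list with the largest ASC to ESC change, and the 10 genes most alike. *Zscan4a* was not analysed here.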

Additional observations from a re-analysis of the deposited data

Results flagged for a closer look

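The rise of *Zscan4* on the route from AFSCs to ASCs was larger than that from ESCs to ESC-ASCs, although both end in the same medium. The difference between these 2 log2 fold changes was tested in the same edgeR fit, a contrast chosen after the data were seen, and 5 of 5 members passed, where 30.8% of all genes had a larger and 27.7% a smaller change for ASCs over AFSCs. The fitted difference was 6.03 ± 1.08 (SE) for *Zscan4b* (adjusted p = 0.000131), 7.38 ± 0.64 for *Zscan4c* (adjusted p = 9.54e-09), 9.57 ± 0.91 for *Zscan4d* (adjusted p = 2.86e-07), 4.86 ± 0.95 for *Zscan4e* (adjusted p = 0.000216) and 8.23 ± 0.74 for *Zscan4f* (adjusted p = 1.58e-08). By definition each difference is the sum of the changes of ASCs over ESC-ASCs and of ESCs over AFSCs. For *Zscan4d* these were 3.88 and 5.69. The contrast restates those comparisons and is no separate evidence. Because AFSCs hold at most 4 counts of a member, the fitted differences and their SE depend on how the fit treats counts near 0. In direct ratios *Zscan4d* was at least 137.6-fold higher in ASCs than in AFSCs and 5.417-fold higher in ESC-ASCs than in ESCs. For *Zscan4f* the lower end of the counting interval was 695.3 on the first route, beside a ratio of 6.887 on the second. The 2 routes start from different levels, since 3 of 5 members were higher in ESCs than in AFSCs, and also differ in line.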

How the results depend on the processing

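The counts of called members for the 9 planned comparisons kept within 1.5 times of their value in 107 of 108 alternatives, the exception being ESCs against AFSCs without AFSC replicate 1, with 5 in place of 3. Leaving out single samples gave 3 to 5 members there, 4 to 5 for ESCs against EpiSCs and 5 for each of the other 7. The log2 ratios of the summed level moved by less than the spread between replicates in 88 of 88 alternatives, which include *Zscan4f* alone and the sum with the pseudogenes. That bar is low, since most alternatives leave out 1 of 3 samples, which moves a mean by less than that spread. In AFSCs the spread (SD 7.775) also exceeds the mean (4.489), so this count is no evidence of stability. Leaving out single samples gave 6.55 to 6.86 for ASCs over ESCs and 3.52 to 3.80 for ASCs over ESC-ASCs. It gave 3.83 to 4.18 for ASCs over EpiLCs, 2.85 to 3.22 for ESC-ASCs over ESCs and -2.90 to -2.47 for ESCs over EpiLCs. The ratios over the near-empty groups moved by more than 1.5 times. ASCs over EpiSCs ran from 12.01 without EpiSC replicate 1 to 13.68 without EpiSC replicate 3, and ESCs over EpiSCs from 5.36 to 7.02 without the same samples. ASCs over AFSCs fell to 9.74 and ESCs over AFSCs to 3.09 without AFSC replicate 2 or 3. Without AFSC replicate 1 a ratio over AFSCs could not be computed, since the other 2 samples are at 0. Scaling by total counts instead of size factors moves all genes by 0.18 on the log2 scale for ASCs against ESCs and by at most that in the other comparisons. Of 540 tests of single members 3 gained and 4 lost their call, all between ESCs and AFSCs or EpiSCs, and of 928 of other named genes 2 gained and 34 lost it. Samples of different groups share replicate numbers, and the labels do not say what a number marks. The correlation of same-numbered samples was not above 0.1 in every pair (45 pairs, mean 0.0924, from -0.239 to 0.511), so the numbers were not taken as pairs, although 42 of 90 cases were best with their own number and the summed *Zscan4* level was highest in replicate 1 in 5 of 6 groups. With the replicate block, *Zscan4b* in ESCs against AFSCs had adjusted p = 0.0488, so 4 members were called in place of 3, and the other 8 counts were 5. Counts under 10 in ESCs, AFSCs and EpiSCs limit what can be read there.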
